A study of Homo sapiens with 12 samples.

Results

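The APOBEC3 genes encode 7 human cytidine deaminases, APOBEC3A, APOBEC3B, APOBEC3C, APOBEC3D, APOBEC3F, APOBEC3G and APOBEC3H. Members were taken by gene symbol, and all 7 were among the 37247 genes in each table. They were picked as a family with their change on selpercatinib already known, from the treated and parent TPM of both lines. Their own levels and changes are therefore given as a description, without a test. RNA was sequenced from LC-2/ad, a lung adenocarcinoma cell line, and TPC-1, a papillary thyroid carcinoma cell line, both of which have a RET fusion. Each line was measured as parent cells, labelled with no treatment, and after 48 h in 100 nM selpercatinib, a drug that blocks the RET kinase. There were 3 libraries per group and 12 in all. LC-2/ad was grown in RPMI-1640 mixed with F-12 and TPC-1 in RPMI-1640 alone, both with fetal bovine serum. The labels do not say whether parent cells received the drug's solvent, or whether the 3 libraries are 3 cultures. The p-values below, which concern other genes, are thus set against a spread that may be technical. Each line is a single established line, so its values stand for that line only.

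APOBEC3 enzymes convert cytosine to uracil in single-stranded DNA and are best known for blocking retroviruses and mobile elements. In tumours, uracil left in chromosomal DNA by family members, above all APOBEC3A and APOBEC3B, is known as a source of clustered and dispersed cytosine mutations. APOBEC3A is known as an inducible gene of keratinocytes and myeloid cells that responds to interferon and NF-kB. APOBEC3B is common in epithelial cancers and is controlled by NF-kB and by the cell cycle factors E2F, B-MYB and the DREAM complex. APOBEC3D, APOBEC3F, APOBEC3G and APOBEC3H are known mainly as factors against HIV lacking Vif, a viral protein that has them degraded.

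The 7 genes lie side by side on the plus strand of chromosome 22 in a cluster of 151 kb, chr22:38952741-39104067 (GRCh38, GENCODE 29). From centromere to telomere, the genes after APOBEC3A and APOBEC3B are APOBEC3C (chr22:39014083-39020352), APOBEC3D (chr22:39021113-39033276), APOBEC3F (chr22:39040604-39053910), APOBEC3G (chr22:39077005-39087743) and APOBEC3H (chr22:39097224-39104067). In the tables they carry the Ensembl identifiers ENSG00000128383 (APOBEC3A), ENSG00000179750 (APOBEC3B), ENSG00000244509 (APOBEC3C), ENSG00000243811 (APOBEC3D), ENSG00000128394 (APOBEC3F), ENSG00000239713 (APOBEC3G) and ENSG00000100298 (APOBEC3H). APOBEC3A, APOBEC3C and APOBEC3H each hold 1 copy of the zinc-binding deaminase motif in their principal coding model, and APOBEC3B, APOBEC3D, APOBEC3F and APOBEC3G hold 2. The motif was searched as codons for a histidine and a glutamate close together, then a proline and 2 cysteines. The sequences below are shown because reads from these genes are hard to tell apart where the sequences are alike. Capitals mark the codons of the zinc-binding histidine and cysteines and of the catalytic glutamate. The APOBEC3A motif lies in exon 3 of 5 at chr22:38961420-38961530. It is identical over all 111 bases to the second motif of APOBEC3B in exon 6 of 8 at chr22:38991365-38991475. The first motif of APOBEC3B, in exon 3 at chr22:38985833-38985937, is identical over 105 bases to the first of APOBEC3F, in exon 3 of 7 at chr22:39044962-39045066. The APOBEC3C motif (exon 3 of 4, chr22:39017787-39017891) differs from the second motif of APOBEC3F (exon 6, chr22:39052095-39052199) at 4 of 105 bases. The second motif of APOBEC3G (exon 6 of 8, chr22:39086312-39086416) has no identical copy among the members. The last line is the first 60-base coding stretch of APOBEC3A within 1 exon that shares no 31-base word with any other member. It lies at chr22:38959542-38959601, coding bases 30 to 89. All are coding sequence read 5′ to 3′ from GENCODE 29 transcripts.
APOBEC3A motif and APOBEC3B second motif: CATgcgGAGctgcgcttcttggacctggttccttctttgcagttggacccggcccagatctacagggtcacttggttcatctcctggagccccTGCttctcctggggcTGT
APOBEC3B first motif and APOBEC3F first motif: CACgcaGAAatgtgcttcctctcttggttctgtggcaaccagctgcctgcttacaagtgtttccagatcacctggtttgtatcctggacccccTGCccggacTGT
APOBEC3C motif: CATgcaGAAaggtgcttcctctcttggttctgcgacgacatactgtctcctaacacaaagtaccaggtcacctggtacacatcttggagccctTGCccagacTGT
APOBEC3F second motif: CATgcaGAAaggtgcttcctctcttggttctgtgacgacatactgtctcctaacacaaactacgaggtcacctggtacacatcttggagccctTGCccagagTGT
APOBEC3G second motif: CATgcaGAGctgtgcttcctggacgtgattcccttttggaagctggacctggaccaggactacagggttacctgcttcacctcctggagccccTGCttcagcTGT
APOBEC3A private stretch: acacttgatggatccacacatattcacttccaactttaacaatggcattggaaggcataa

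The likeness extends beyond the motifs. Of the 597 coding bases of APOBEC3A, 42.3% of the 31-base words also occur in an APOBEC3B transcript, and the longest run they share is 197 bases. Over all annotated transcripts of a gene, the share of 31-base words found in another member was 28.5% for APOBEC3A, 47.7% for APOBEC3B and 30.2% for APOBEC3F. It was 22.5% for APOBEC3D, 9.41% for APOBEC3G, 6.29% for APOBEC3C and 0% for APOBEC3H. The annotated APOBEC3A gene, chr22:38952741-38992778, overlaps APOBEC3B, chr22:38982347-38992804, through 1 transcript model that ends inside it. Without that model, 18.1% of the APOBEC3A words were shared with APOBEC3B. How shared reads were divided between members is not given in the sources used here, so the split between APOBEC3A and APOBEC3B is uncertain. The summed level of the pair is given below for that reason.

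In LC-2/ad the family changed its make-up. APOBEC3A, which was close to absent from parent cells, became the third most abundant member after selpercatinib, and APOBEC3B, the dominant member of parent cells, was 2.98-fold lower. In TPC-1 APOBEC3A stayed at or near 0 and APOBEC3B was 1.33-fold higher. Levels are in TPM, a transcript abundance scaled for length and library total, so that genes of a library can be compared. On the main axis of variation in TPC-1, parent replicate 1 (-4.93) lay nearer the treated libraries (8.44 to 19.5) than the other parent libraries did (-23.3 and -17.7). Without it the TPC-1 log2 differences given below were 0.40 for APOBEC3B, -0.30 for APOBEC3C, 0.25 for APOBEC3F and 0.08 for APOBEC3G.

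APOBEC3A, the single-motif enzyme with the strongest known activity on chromosomal DNA, was at 0.199, 0.570 and 0.448 TPM in the 3 LC-2/ad parent libraries. After treatment it was at 10.8, 17.4 and 14.9 TPM. Every treated library was far above every parent library. The mean went from 0.406 ± 0.189 (SD, n = 3) to 14.4 ± 3.33 TPM, a 35.4-fold ratio of means. On the log2(TPM + 1) scale used for all changes below, the difference was 3.43 ± 0.19 (SE), and this scale understates changes of low genes. With a pseudocount of 5 it was 1.83, and with 0.1 it was 4.89. In TPC-1, APOBEC3A was listed at 0 in all 3 parent libraries, and treated libraries had 0.102, 0.0505 and 0 TPM. In bulk RNA, more expressing cells and more RNA per cell cannot be told apart.

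APOBEC3B, the nuclear member with a pair of deaminase motifs, stood at 67.9, 73.8 and 72.0 TPM in the LC-2/ad parent libraries and at 23.9, 25.1 and 22.7 TPM in the treated ones. The groups were wide apart and each was tight. The means were 71.2 ± 3.00 and 23.9 ± 1.18 TPM (SD, n = 3), a log2 difference of -1.54 ± 0.06 (SE). In TPC-1 the parent libraries were at 27.9, 28.0 and 27.5 TPM and the treated ones at 38.0, 36.5 and 36.8 TPM. All treated libraries were again apart from all parent libraries, here above them. The means were 27.8 ± 0.253 and 37.1 ± 0.815 TPM, a log2 difference of 0.40 ± 0.06. The direction in the 2 lines was thus opposite, and the difference between the lines was not tested because the members were chosen from these changes.

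The levels of the pair are set side by side because they share sequence. LC-2/ad parent cells held 71.2 TPM of APOBEC3B with 0.406 TPM of APOBEC3A, and treated TPC-1 cells held 37.1 TPM of APOBEC3B with 0.0509 TPM of APOBEC3A. The part of shared reads in either level was not tested. The pair summed to 71.6 ± 3.19 TPM in untreated LC-2/ad and to 38.3 ± 3.91 TPM after treatment (SD, n = 3). APOBEC3A made up 0.560% of the pair in parent cells (0.293% to 0.767% over libraries) and 37.2% after treatment (31.1% to 40.9%).

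APOBEC3C, a single-motif member found in many tissues, stood at 16.5, 16.8 and 17.4 TPM in the LC-2/ad parent libraries and at 18.8, 23.6 and 19.9 TPM in the treated ones. Treated libraries were above parent libraries without overlap, by a small amount, a log2 difference of 0.27 ± 0.09 (SE). In TPC-1, APOBEC3C was at 39.8, 41.9 and 40.7 TPM in parent cells and 35.9, 30.97 and 33.3 TPM after treatment. There every treated library was below every parent library, with a log2 difference of -0.28 ± 0.07. APOBEC3C was thus, with APOBEC3B, a member whose libraries moved apart in opposite directions in the 2 lines, and this too was not tested.

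APOBEC3F, a double-motif antiviral member, stood at 3.46, 4.03 and 2.37 TPM in the LC-2/ad parent libraries and at 5.30, 8.15 and 6.94 TPM in the treated ones. The groups did not overlap, and the ratio of means was 2.07, a log2 difference of 0.87 ± 0.19 (SE). With a pseudocount of 5 that difference was 0.51. In TPC-1 its parent libraries were at 9.24, 7.30 and 7.70 TPM and its treated libraries at 7.14, 10.5 and 10.2 TPM. These overlapped, and the log2 difference was 0.16 ± 0.16.

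APOBEC3G, the member best known for restricting HIV, was low in LC-2/ad and plain in TPC-1. In LC-2/ad it was at 0.527, 0.678 and 0.787 TPM in parent cells and 0.878, 0.997 and 1.11 TPM after treatment, under the mean of 1 TPM that the fit required. The libraries did not overlap, but the values are too low for a fitted change to be given. In TPC-1 it was at 9.09, 7.73 and 9.51 TPM and then 8.73, 10.8 and 7.99 TPM, overlapping groups with a log2 difference of 0.05 ± 0.13 (SE). APOBEC3D, a double-motif member, stayed between 0 and 0.267 TPM in LC-2/ad libraries and between 0 and 0.0701 TPM in those of TPC-1. APOBEC3H, the most diverged member, was between 0 and 0.289 TPM in LC-2/ad and was listed at 0 in all 6 TPC-1 libraries. No direction is read from either.

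**Figure D1:**
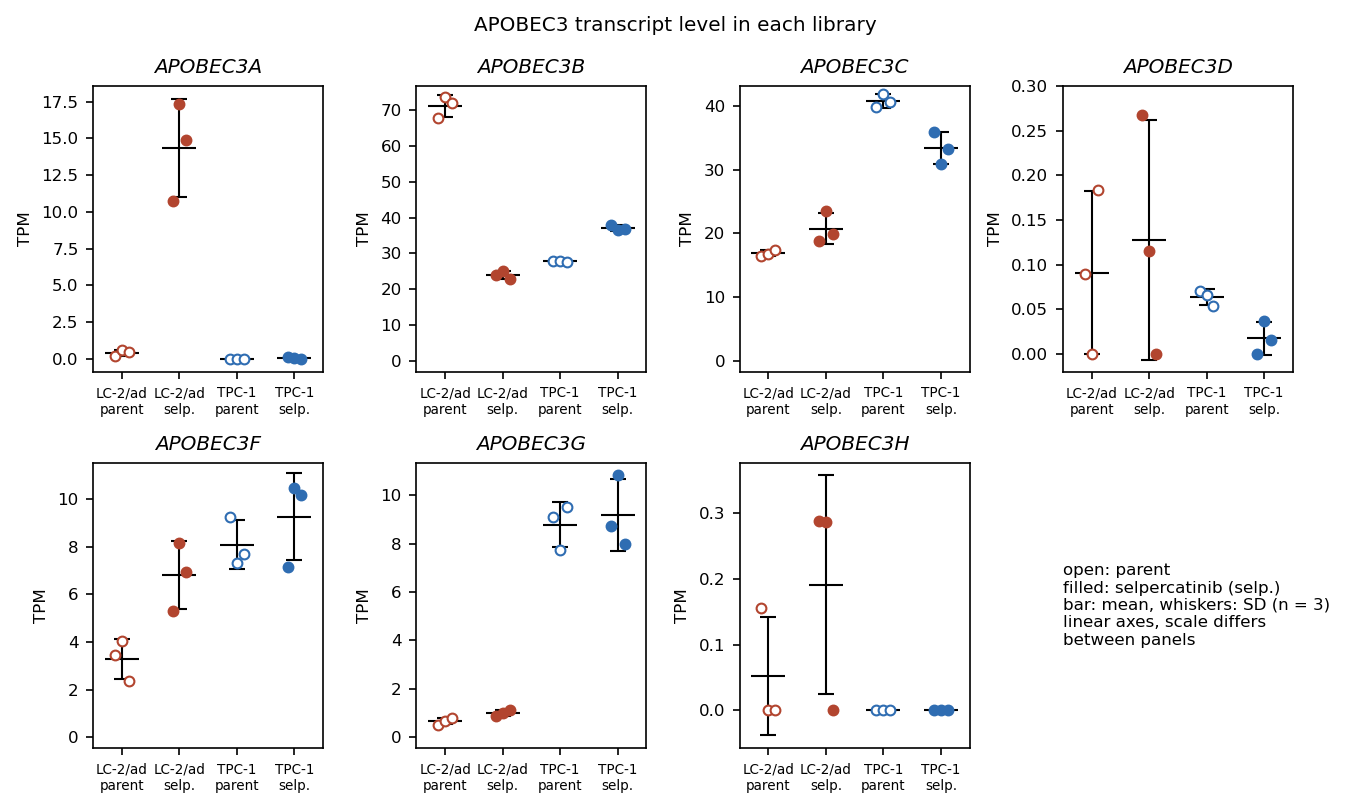
TPM of each APOBEC3 gene in each of the 12 libraries, 1 panel per gene with its own linear axis; points are libraries, the bar is the group mean and whiskers are the SD (n = 3). APOBEC3A is high only in the treated LC-2/ad libraries (10.8 to 17.4 TPM), and APOBEC3B is lower after treatment in LC-2/ad and higher in TPC-1.

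Each line had 4 members with a mean of at least 1 TPM, so that 3 in each line were not fitted. In LC-2/ad, 3 of the 4 had every treated library above every parent library and 1 had every one below, against 35.3% and 27.6% of the 14118 genes tested. Non-overlapping groups were the rule in this line, at 62.8% of all genes. In TPC-1, 1 of the 4 was above without overlap, 1 was below and 2 overlapped, against 16.6% above and 9.23% below among 12825 genes, or 25.8% in either direction. Nothing is read from these counts, because the members were chosen from the same contrast. By size, the middle 90% of genes lay between -0.82 and 1.00 on the log2 scale in LC-2/ad, with a median of 0.07. APOBEC3A and APOBEC3B were outside that range and APOBEC3C and APOBEC3F were inside it. In TPC-1 the range was -0.28 to 0.50, with a median of 0.05, and APOBEC3C lay at its lower edge.

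The order of the levels differed between the lines and, in LC-2/ad, with treatment. LC-2/ad parent cells had APOBEC3B first, then APOBEC3C and APOBEC3F, each apart from the next, then APOBEC3G and APOBEC3A, which overlapped. After treatment APOBEC3B and APOBEC3C overlapped at the top, followed without overlap by APOBEC3A, APOBEC3F and APOBEC3G. In TPC-1 parent cells APOBEC3C came first and APOBEC3B after it, without overlap, and APOBEC3G and APOBEC3F overlapped below. In treated TPC-1 cells APOBEC3B was above APOBEC3C without overlap, and APOBEC3F and APOBEC3G overlapped again.

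Summed over the 7 genes, LC-2/ad held 92.6 ± 3.52 TPM in parent cells and 67.1 ± 7.77 TPM after treatment (SD, n = 3). TPC-1 held 85.5 ± 0.603 and 89.0 ± 0.830 TPM. The lower LC-2/ad sum lay in APOBEC3B alone: without it, the sum was 21.4 ± 0.583 TPM in parent cells and 43.2 ± 7.09 TPM after treatment. APOBEC3B made up 76.9% of the LC-2/ad sum in parent cells and 35.9% after treatment, and APOBEC3A went from 0.433% to 21.2%. The share of APOBEC3C was 18.3% and then 30.9%. In TPC-1 the share of APOBEC3C was 47.7% and then 37.5%, and that of APOBEC3B 32.5% and then 41.7%. The lines were tabulated separately, so these levels are set side by side and were not tested against each other.

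**Figure D2:**
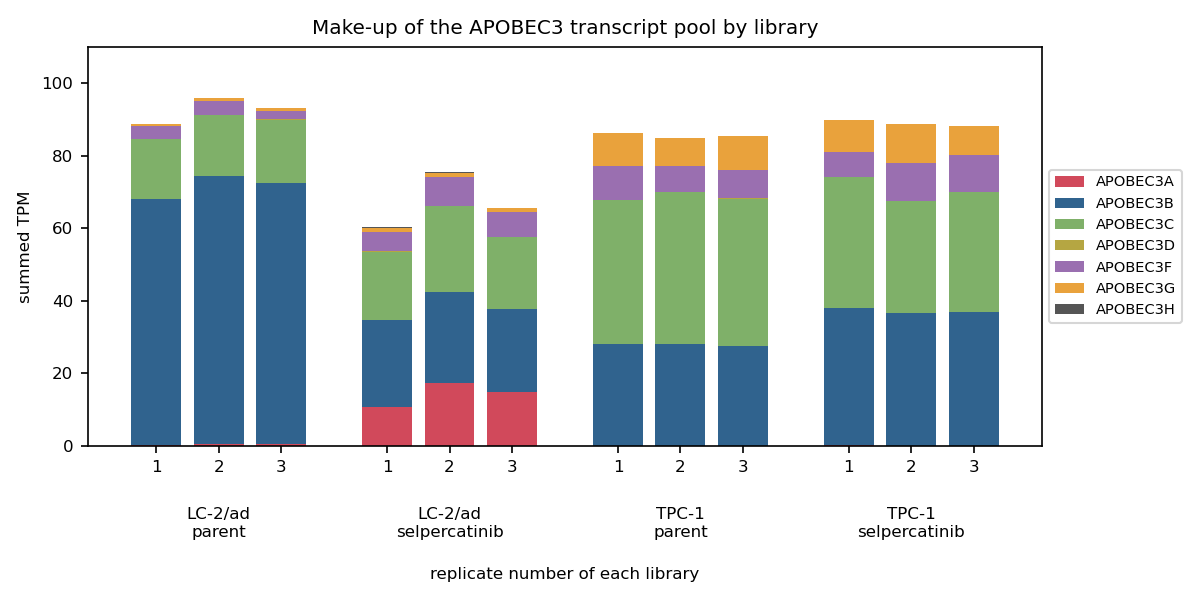
Summed TPM of the 7 APOBEC3 genes in each of the 12 libraries, stacked by gene. APOBEC3B fills most of each LC-2/ad parent bar, APOBEC3A appears in the 3 treated LC-2/ad bars, and the TPC-1 bars keep their height near 85 to 90 TPM.

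Other genes were tested with limma on the same scale, with Benjamini-Hochberg adjustment over all genes of a line. Selpercatinib changed 7770 of 14118 genes in LC-2/ad, 55% of those tested (30.6% higher and 24.4% lower), and 636 of 12825 in TPC-1, 4.96% (3.75% higher and 1.21% lower). A list in LC-2/ad thus has to be read against a background in which most genes changed. The direction of the LC-2/ad calls rests on the scaling: 55.6% of them were higher with TPM as deposited and 44.4% with median-of-ratios scaling. In TPC-1 the share was 75.6%, and 62.3% with that scaling. Mitochondrial transcripts made up 9.72% to 9.83% of TPM in LC-2/ad parent libraries and 14.0% to 15.0% in treated ones. In TPC-1 they made up 6.41% to 7.56% and 5.83% to 6.82%. With them removed and the rest rescaled, the log2 differences in LC-2/ad were 3.60 for APOBEC3A and -1.46 for APOBEC3B.

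Cell cycle factors known to act on APOBEC3B mostly fell in LC-2/ad. Of 13 genes of the B-MYB, E2F and DREAM machinery, which times cell cycle transcription, 10 fell and 2 rose in LC-2/ad, with a list median of -0.74 on the log2 scale. MYBL2, which encodes B-MYB, fell by 1.63 ± 0.07 (SE, limma adjusted p = 1.2e-06), from a mean of 73.5 to 23.03 TPM. E2F1 fell by 1.60 ± 0.09 (limma adjusted p = 4.1e-06) and FOXM1, a cell division activator that joins B-MYB, by 1.59 ± 0.07 (limma adjusted p = 2.4e-06). E2F2 fell by 1.25 ± 0.12 (limma adjusted p = 8.6e-05). Falls of at least 1 were called in 3.31% of all genes tested in this line, and rises of that size in 4.59%. The 2 that rose were LIN37, a DREAM subunit, at 0.57 ± 0.14, and RBL2, the repressive pocket protein p130, at 0.50 ± 0.06. In TPC-1, 0 of the 13 passed limma's adjusted test, 1 was under an unadjusted p of 0.05, and the list median was 0.03. The difference of this list between the lines and its part in the APOBEC3B level were not tested.

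NF-kB genes rose in both lines. Of 6 subunit and inhibitor genes, 4 rose and 0 fell in each, with a median log2 difference of 0.46 for LC-2/ad and 0.86 for TPC-1. In LC-2/ad, NFKBIA, the inhibitor that is itself an NF-kB target, rose by 0.79 ± 0.04 (SE, limma adjusted p = 3.5e-06), NFKB2 by 0.64 ± 0.08 and REL by 0.54 ± 0.11. In TPC-1, NFKBIA rose by 1.52 ± 0.11 (limma adjusted p = 0.00019), RELB by 1.33 ± 0.09 (limma adjusted p = 0.0002) and NFKB2 by 1.11 ± 0.07 (limma adjusted p = 0.00016). Rises of at least 1 were called in 0.437% of TPC-1 genes. APOBEC3A was at or near 0 TPM in TPC-1 before and after treatment. The part of the NF-kB list in the APOBEC3 levels was not tested in either line.

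Interferon receptors and their signalling genes rose in 9 of 13 cases in LC-2/ad, with 0 falling and a median of 0.43. Higher calls made up 30.6% of all genes tested in this line. The number that rose was 7 with median-of-ratios scaling, no filter or the replicate block. It was 6 to 9 with a library left out. IRF9 rose by 1.72 ± 0.10 (SE, limma adjusted p = 7.4e-06), from a mean of 17.0 to 58.2 TPM, and STAT2, its partner in the complex that drives interferon-stimulated genes, by 1.25 ± 0.05 (limma adjusted p = 1.6e-06). In TPC-1, 3 of 12 rose and 0 fell, among them IFNGR2 by 0.85 ± 0.12 (limma adjusted p = 0.0047) and IRF1 by 0.46 ± 0.09 (limma adjusted p = 0.023). The call of IRF1 was lost in 7 of 14 alternative settings, with an adjusted p of up to 0.106.

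Sensors of foreign nucleic acid and other antiviral genes rose more often than they fell in LC-2/ad. Among 10 sensors and adaptors, 6 rose and 0 fell there, with a median of 0.36. DHX58, a regulator of RIG-I-like receptors, rose by 1.31 ± 0.17 (SE, limma adjusted p = 0.0004) and TLR3, the endosomal receptor of double-stranded RNA, by 1.13 ± 0.08 (limma adjusted p = 1.5e-05). Among 19 antiviral restriction factors 12 rose and 4 fell, with a median of 0.33. The largest rises were TRIM22 at 1.79 ± 0.11 (limma adjusted p = 7.1e-06), MX2 at 1.43 ± 0.12, ISG20 at 1.24 ± 0.15 and RSAD2 at 1.17 ± 0.17. The 4 that fell were IFI16, IFITM1, IFITM3 and SLFN11, by 0.56, 0.74, 0.29 and 0.70. In TPC-1, 0 of 10 sensors and 0 of 16 restriction factors passed limma's adjusted test, and 1 and 3 were under an unadjusted p of 0.05. Whether these lists differ between the lines was not tested.

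Genes that deal with uracil in DNA fell more often than they rose in LC-2/ad. Of 18 repair and bypass genes, 9 fell and 2 rose, with a median of -0.24. UNG, the main glycosylase that removes uracil from DNA, fell by 1.01 ± 0.06 (SE, limma adjusted p = 5.9e-06), from a mean of 67.6 to 33.0 TPM. DUT, which keeps dUTP out of the nucleotide pool, fell by 0.87 ± 0.04. The 2 that rose were REV3L, the catalytic subunit of polymerase zeta, at 0.31 ± 0.09, and SMUG1, a second uracil glycosylase, at 0.17 ± 0.06. With median-of-ratios scaling 0 genes of the list were called higher. With no filter, no variance trend or any library left out, 1 was. In TPC-1, UNG was the only 1 of 18 called, and fell by 0.33 ± 0.06 (limma adjusted p = 0.021). That call was lost in 6 of 14 alternative settings, with an adjusted p of up to 0.109.

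Deaminases outside the cluster gave no common direction. APOBEC1, APOBEC2 and APOBEC4, relatives outside the cluster, stayed below a mean of 1 TPM in both lines. Of 9 other nucleoside and RNA deaminases and cofactors in LC-2/ad, 2 rose and 2 fell: ADAR rose by 0.20 ± 0.07 and CDA, the free cytidine deaminase, by 0.23 ± 0.08 (SE, limma adjusted p = 0.031). ADAT2, a tRNA adenosine deaminase, fell by 0.48 ± 0.13 (limma adjusted p = 0.015), and RBM47, a cofactor of APOBEC1, by 0.23 ± 0.04 (limma adjusted p = 0.0022). The CDA call was lost in 5 of 14 settings (adjusted p up to 0.154), and that of ADAT2 without parent replicate 2 (adjusted p = 0.0527). The ADAR call also depended on the setting. In LC-2/ad, 0 genes of this list were called higher with median-of-ratios scaling, without parent replicate 1 or without treated replicate 1. With no filter or no variance trend, 1 was. In TPC-1 CDA alone passed of 9, at 0.84 ± 0.18 (limma adjusted p = 0.034), and its call was lost in 8 of 13 settings, up to an adjusted p of 0.131. Of 7 host ligase subunits that Vif recruits to degrade APOBEC3 proteins, 5 fell and 0 rose in LC-2/ad. Lower calls made up 24.4% of all genes tested in this line. With mitochondrial genes removed 4 of the subunits fell and 1 rose, and with median-of-ratios scaling 6 fell and 0 rose. CBFB, which stabilises Vif, fell by 0.80 ± 0.11 (limma adjusted p = 0.00062), ELOC by 0.53 ± 0.05 and UBE2F by 0.30 ± 0.05. In TPC-1 0 of the 7 passed limma's test, adjusted or not.

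**Figure D3:**
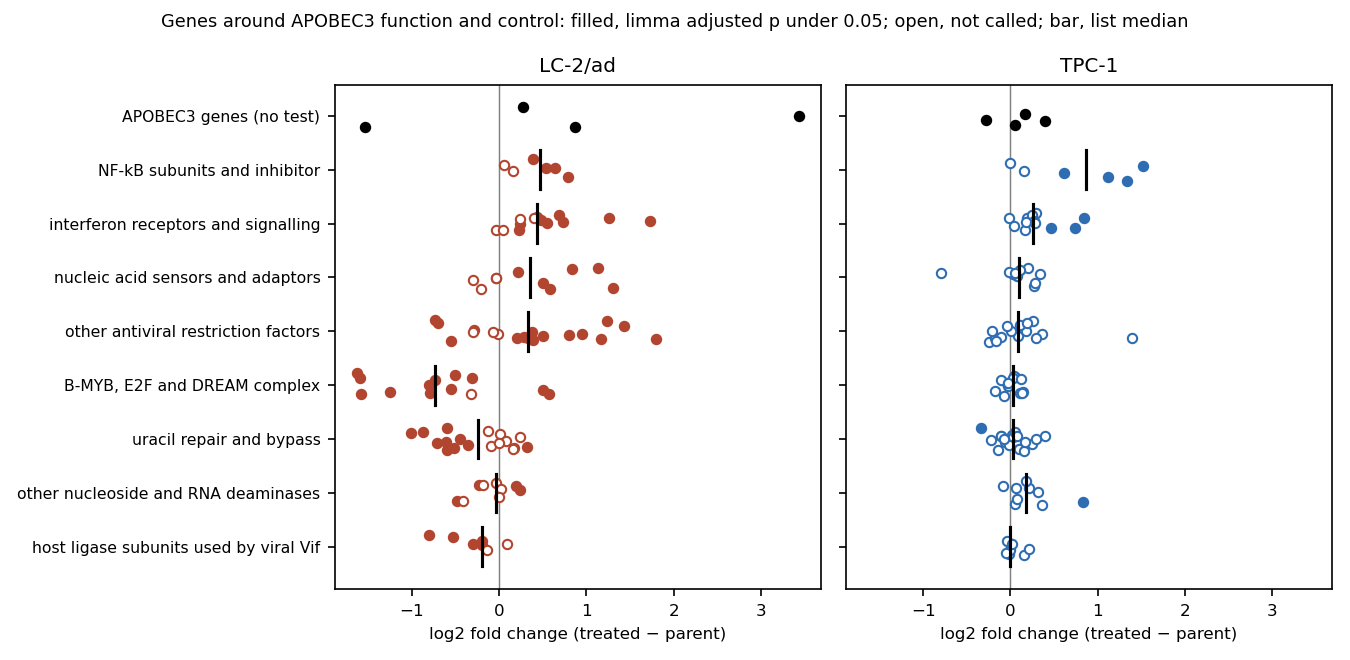
Log2 fold change (treated minus parent) of each tested gene in 8 lists around APOBEC3 function and control, in LC-2/ad and TPC-1; filled points passed limma's test at an adjusted p under 0.05, bars are list medians, and the APOBEC3 genes carry no test. The cell cycle list lies left of 0 in LC-2/ad (median -0.74) and at 0 in TPC-1 (0.03), and the NF-kB list lies right of 0 in both.

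Genes next to the cluster changed by less than APOBEC3A and APOBEC3B in LC-2/ad, but the members were chosen with their changes known. Of 18 tested neighbours within 469 kb on either side, 11 rose and 3 fell in LC-2/ad, with a median of 0.22. Over all genes tested in this line, 30.6% were called higher and 24.4% lower. The number of neighbours that rose depended on the scaling. With median-of-ratios scaling 7 rose and 3 fell, and with mitochondrial genes removed 14 rose and 3 fell. PDGFB, a growth factor gene 119 kb beyond APOBEC3H, rose by 1.17 ± 0.10 (SE, limma adjusted p = 5.8e-05). CBX6 and CBX7, Polycomb genes that flank the cluster, rose by 0.15 ± 0.04 and 0.52 ± 0.13. The other fitted members did not exceed all neighbours: PDGFB changed by more than APOBEC3F (0.87), and CBX7 by more than APOBEC3C (0.27). The 3 that fell did so by 0.25 to 0.41, against the difference of -1.54 for APOBEC3B, whose start lies 29.6 kb from that of APOBEC3A. In TPC-1, 2 of 18 neighbours rose and 0 fell: PDGFB by 0.93 ± 0.08 (limma adjusted p = 0.00046) and JOSD1 by 0.32 ± 0.07 (limma adjusted p = 0.044). The JOSD1 call was lost in 9 of 14 settings, with an adjusted p of up to 0.163. The pseudogene APOBEC3AP1 was listed at 0 in all libraries, and the antisense transcript of APOBEC3B and the APOBEC3A_B fusion gene were not analysed here.

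**Figure D4:**
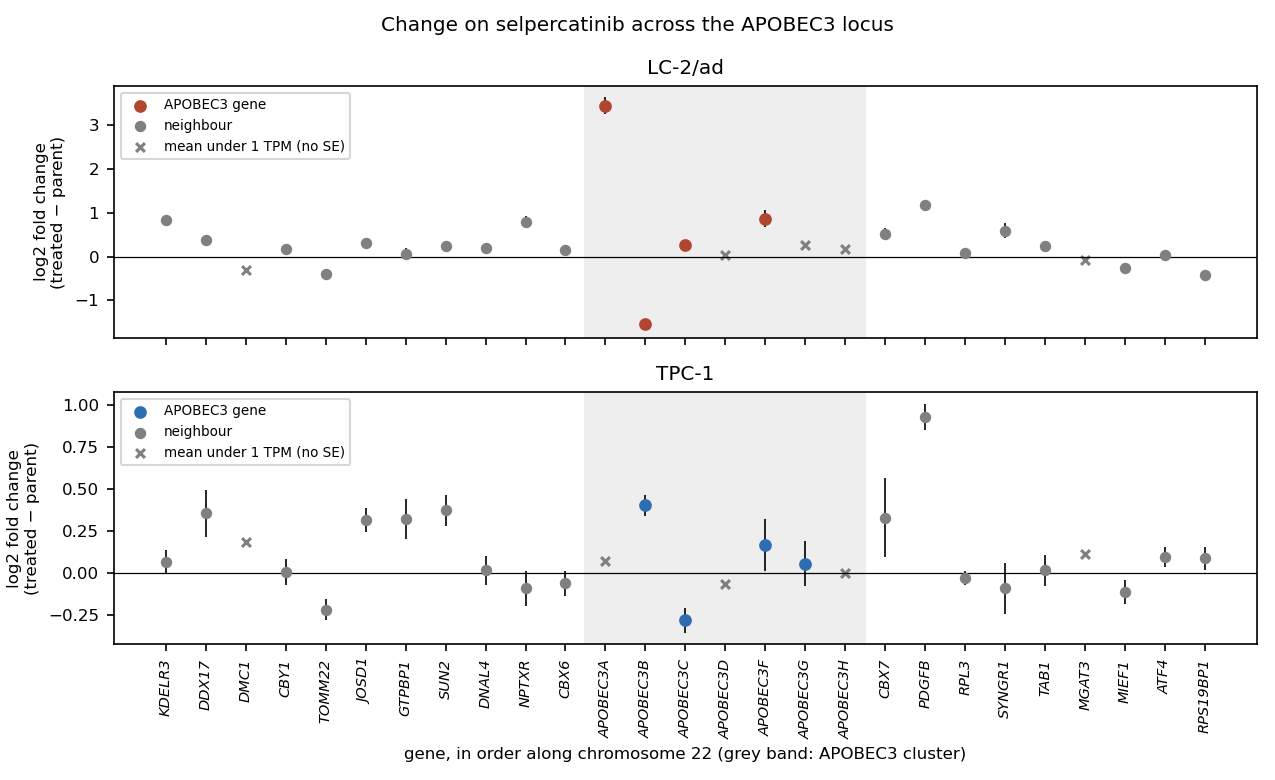
Log2 fold change (treated minus parent) of the APOBEC3 genes and 20 neighbours in their order along chromosome 22, with limma SE as whiskers; crosses are genes with a mean under 1 TPM, and the grey band is the cluster. In LC-2/ad APOBEC3A (3.43) and APOBEC3B (-1.54) lie outside the range of the neighbours, and APOBEC3F (0.87) and APOBEC3C (0.27) lie inside it. In TPC-1 PDGFB (0.93) is the highest point.

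The genes with the pattern most like each member were sought over all 12 libraries among 13804 genes. Likeness was the root mean square difference of log2(TPM + 1), each centred on its parent mean in the line. For APOBEC3A the closest were CYP1A1 (difference 0.24), an enzyme induced through the aryl hydrocarbon receptor, CHIA (0.38), a chitinase, and the pseudogene CYP2B7P (0.41). CYP1A1 went from a mean of 52.4 to 561 TPM in LC-2/ad and was below 1 TPM in TPC-1. The LC-2/ad differences were 3.43 for APOBEC3A and 3.40 for CYP1A1 on this scale, which understates changes of low genes. APOBEC3A started from 0.406 TPM, and its ratio of means was 35.4. With a pseudocount of 0.1 its difference was 4.89. Likeness was not recomputed with other pseudocounts, so the match to CYP1A1 holds for this scale only. For APOBEC3B the closest were ANLN (0.11), ZWINT (0.11) and PRC1 (0.12), which act in cytokinesis, at kinetochores and in the spindle midzone. ANLN went from 94.5 to 35.0 TPM in LC-2/ad and from 166 to 201 TPM in TPC-1. The closest to APOBEC3C were STX17, C22orf46P and ZCCHC24 (0.07 to 0.08), and to APOBEC3F HELZ2, HECW2 and TTC28 (0.13 to 0.15). Closest to APOBEC3G were MKNK1, SRSF5 and CARD19 (0.06 to 0.07). In LC-2/ad APOBEC3G was under a mean of 1 TPM, where the pseudocount shrinks its changes, so nothing is read from these matches in that line. The 12 libraries share lines and treatment, so the likeness is over 4 groups and not over 12 independent conditions.

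Markers of other cells were measured beside the family, since APOBEC3 genes are abundant in blood cells and APOBEC3A in keratinocytes. Of 10 leukocyte markers 0 reached a mean of 1 TPM in either line. Their sum was 1.69 to 2.12 TPM in LC-2/ad parent libraries and 1.12 to 2.13 in treated ones, with 4 at 0 throughout, among them CD2 and MS4A1. In TPC-1 the sum was at most 0.378 TPM and 7 were at 0. Of 8 squamous and keratinocyte markers 4 reached 1 TPM in LC-2/ad, where the list summed to 136 to 153 TPM in parent libraries and 51.9 to 57.4 after treatment. Most of that sum was KRT13, at a mean of 122 TPM in parent cells and 37.9 after treatment. KRT13, SPRR3 and TP63 fell and IVL did not pass the test. KRT14, a basal keratinocyte keratin, went the other way, from 0.494, 0.724 and 0.241 TPM to 1.20, 1.29 and 1.03, too low to be fitted. KRT5 stayed below 1 TPM. The part of these markers in the APOBEC3A level was not tested. In TPC-1 that list summed to at most 0.828 TPM. Of 7 fibroblast and endothelial markers 3 were fitted in LC-2/ad, 2 rose and 0 fell. The list summed to 31.5 to 37.1 TPM and then 39.0 to 45.0. Most of that sum was COL1A1, a collagen gene, at 33.2, 28.2 and 32.6 TPM and then 32.2, 37.8 and 38.7 TPM. Its groups overlapped and it was not called (limma adjusted p = 0.093). LUM, a matrix proteoglycan, rose from a mean of 0.495 to 2.12 TPM (log2 1.05 ± 0.19, limma adjusted p = 0.0023), and CDH5, the endothelial cadherin, from 2.07 to 3.63 (0.59 ± 0.13, limma adjusted p = 0.0066). PECAM1, an endothelial marker, went the other way, from 1.01, 0.571 and 0.630 TPM to 0.227, 0.178 and 0.327, with a mean under 1 TPM and no fit. VWF, DCN and COL3A1 were under a mean of 1 TPM too. Treated libraries lay above parent libraries for VWF and overlapped them for DCN and COL3A1. In TPC-1 the list summed to 28.1 to 31.1 TPM and then 24.6 to 31.5, and COL1A1 alone was fitted and not called. Their part in the APOBEC3 levels was not tested. Of the lung markers, NKX2-1, NAPSA and SFTA3 were present in LC-2/ad, while SFTPB was under a mean of 1 TPM and SFTPC was at 0. Of the thyroid markers, PAX8 and FOXE1 were present in TPC-1, and TG and TSHR were under a mean of 1 TPM. FOXE1 and PAX8, transcription factors of the thyroid lineage, were present in LC-2/ad as well. There FOXE1 rose from a mean of 11.6 to 36.2 TPM (log2 1.56 ± 0.07, limma adjusted p = 1.5e-06), against 9.11 and 9.27 TPM in TPC-1. PAX8 rose from 14.8 to 21.9 TPM in LC-2/ad (0.53 ± 0.10, limma adjusted p = 0.0025), and its TPC-1 means were 190.0 and 271 TPM (limma adjusted p = 0.046, not recomputed under the alternative settings).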

How the data were processed

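The authors deposited 1 table of TPM for each cell line, with a value for every gene in every library. Tools listed in the submitters' processing notes are Salmon, with no version, and bcl2fastq 2.20.0, and the build is GRCh38. The annotation used and the division of reads between similar transcripts are not given in the sources used here. TPM keep no count of reads, so depth is unknown and errors are the spread over libraries.

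Groups were read from the labels. Treated libraries were compared with parent libraries of the same line on log2(TPM + 1), using limma 3.58.1 (eBayes with trend) and R 4.3.3. Genes entered the fit at a mean of at least 1 TPM over the 6 libraries. Tests were two-sided, and genes were called at a Benjamini-Hochberg adjusted p under 0.05. The procedure was run on simulated data, with the spread shuffled over genes and changes placed only in genes well above the filter. That run does not speak to low genes, and nothing here rests on its outcome. Members, lists and naming rules were chosen with earlier results of these data known, so members carry no test. Of 125 listed genes 123 were in the tables. Named were all members, list genes called with a log2 change of at least 1 (otherwise up to 3 per list and line), and 3 genes most like each expressed member. A few listed genes are not reported here. Others were named after their values were seen, such as LIN37, RBL2, DUT, REV3L, SMUG1, ADAR, CBX6 and the restriction factors that fell. Gene models and sequences came from GENCODE 29, read with Python 3.11.15, pandas 2.3.3 and numpy 2.4.6, and figures were drawn with matplotlib 3.10.9.

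Each alternative setting differed in 1 choice. These were pseudocounts of 0.1 and 5, a filter at 5 TPM or none, scaling by median of ratios, leaving out mitochondrial genes, a fit with no variance trend, a replicate block, and omission of single libraries.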

Additional observations from a re-analysis of the deposited data

Results flagged for a closer look

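Among the members and the list genes chosen by the naming rule, 5 had every treated library on 1 side of every parent library in LC-2/ad and on the other side in TPC-1. The difference between the lines was not tested for any of them. Separated groups were not rare among all tested genes. For LC-2/ad, 35.3% of genes had all treated libraries above and 27.6% had all below. The TPC-1 shares were 16.6% above and 9.23% below. The share of all genes with opposite placement is not given here, so nothing is read from the count of 5. APOBEC3B had a log2 difference of -1.54 in LC-2/ad against 0.40 in TPC-1, and APOBEC3C one of 0.27 and -0.28. E2F1, an activator of S-phase genes, was at -1.60 and 0.15. CBFB, the Vif-stabilising factor, was at -0.80 and 0.16. RBM47, the APOBEC1 cofactor, was at -0.23 and 0.36. The TPC-1 values of E2F1, CBFB and RBM47 did not pass the adjusted limma test. Among the other listed genes TFDP1, CUL5, CGAS, IFITM1 and, under a mean of 1 TPM, DMC1 showed the same opposite placement, below in LC-2/ad and above in TPC-1.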

How the results depend on the processing

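No APOBEC3 log2 difference of a fitted member in LC-2/ad changed direction under any setting run. There APOBEC3A ranged from 1.83 to 4.89 (pseudocounts of 5 and 0.1) and from 3.29 to 3.61 with each library left out. APOBEC3B ranged from -1.63 to -1.40, APOBEC3C from 0.18 to 0.35 and APOBEC3F from 0.51 to 1.04. In TPC-1 APOBEC3B ranged from 0.35 to 0.41 and APOBEC3C from -0.34 to -0.23, while APOBEC3G, at 0.05, was at -0.06 without treated replicate 2 and -0.03 without parent replicate 2. The number of TPC-1 genes called was 636, 272 with no filter and 356 with no variance trend, and between 292 (without parent replicate 3) and 815 (without parent replicate 1) with a library left out. It was 337 without parent replicate 2, 335 without treated replicate 1 and 339 without treated replicate 2. Of the TPC-1 lists, the other deaminases had 0 called with no filter, with a mean of at least 5 TPM, under the replicate block and with any library left out (0 to 0). The neighbours had 1 with no filter, median-of-ratios scaling, no variance trend or the block, and 1 to 4 with a library left out. The uracil list had 0 with no variance trend and 0 to 1 with a library left out, and the restriction factors 1 with median-of-ratios scaling. In LC-2/ad the other deaminases had 2 to 3 called with a library left out. The cause was not tested. The labels do not say whether same-numbered libraries are pairs. Around their group means, same-numbered libraries correlated between -0.05 and -0.01 in LC-2/ad and between -0.03 and 0.05 in TPC-1. Differently numbered ones correlated between 0.003 and 0.04 in LC-2/ad and between -0.12 and 0.09 in TPC-1. With so few libraries these values cannot show whether cultures were paired. The replicate block gave 7357 called genes for LC-2/ad and 542 for TPC-1. Depth is unknown, so values near 0, such as those of APOBEC3D and APOBEC3H, cannot be given a counting error.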
